A study of Mus musculus with 7 samples.

Results

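The 10 genes described here form the core of the circadian clock and its first output: the activators Bmal1 (formerly Arntl) and Clock, the period genes Per1, Per2 and Per3, the cryptochrome genes Cry1 and Cry2, the REV-ERB genes Nr1d1 and Nr1d2, and the output factor Dbp. They were taken by symbol from the deposited table of 52740 gene identifiers, and all 10 were found and passed the filter on low counts, among 16990 genes tested. Their levels were compared between 7 libraries of mouse retinal pigment epithelium (RPE), and between genotypes, for signs that the mice were at different phases of the clock.

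RNA was sequenced from RPE of 4 wildtype (WT) mice, named F1, F2, F3 and M1, and of 3 LC3b-/- mice, named F1, F3 and M, and values per library are given in that order throughout. F and M give the sex, so that WT held 3 females and 1 male and LC3b-/- held 2 females and 1 male. The labels give an age of 24 months for every mouse, and each mouse gave its own library. LC3b, encoded by Map1lc3b, is a protein that is joined to lipid on autophagosomes and on phagosomes, and the LC3b-/- mice lack it in every cell. The labels write the mutant genotype as LCb-/-. By the study's methods, the LC3b-/- line (B6;129P2-Map1Lc3btm1Mrab/J) and the C57BL6/J WT mice were purchased lines, so genotype and strain background cannot be told apart. A number within the mouse names, whose meaning is not given in the sources used here, also differs between the genotypes. Within LC3b-/- it differs between the male and the females. Mice were kept on a standard cycle of light and dark. The time of day at which the eyes were taken is not given in the sources used here. RPE was released from the eyecup with hyaluronidase and then trypsin at body temperature in both groups, after the neural retina had been pulled away.

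The clock is a loop of transcription in which BMAL1, paired with CLOCK or NPAS2, binds E-boxes and drives the Per, Cry, Nr1d and Dbp genes, and in which PER and CRY proteins then return to block that pair. The REV-ERB proteins made from Nr1d1 and Nr1d2 repress Bmal1, Npas2 and other genes through an element that the ROR factors activate, so Bmal1 and Npas2 peak at about the time when Dbp and Nr1d1 are lowest. DBP and its relatives TEF and HLF activate, and NFIL3 represses, genes that carry a D-box. In the eye, clocks of the RPE and the retina are known for timing the daily shedding and engulfment of photoreceptor outer segments, the cargo of LC3-associated phagocytosis.

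The elements through which these genes act on each other were looked for in their start regions, and 4 stretches that hold such an element are shown. An element does not by itself mark the arm of the loop. Cry1, shown with an E-box, is set below against the E-box targets, and the windows of Nr1d1, Nr1d2 and Dbp held no such element. RefSeq promoter windows, from 250 bases before to 50 bases after a start, were given for 9 of the 10 genes, 13 windows in all, Per2 being the gene without an entry. The table was built on GRCm38.p6. The printed stretches were located by exact match in GRCm39, the build of the counts, and are written 5′ to 3′ on the gene's strand, with the element in capitals.
Per1, E-box 166 bases before the start, chr11:68989597-68989626, plus strand: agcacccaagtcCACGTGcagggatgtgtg
Cry1, E-box 60 bases before the start, chr10:85020961-85020990, minus strand: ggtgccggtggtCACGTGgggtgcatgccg
Per3, D-boxes 205 and 158 bases before the start, chr4:151129228-151129372, minus strand: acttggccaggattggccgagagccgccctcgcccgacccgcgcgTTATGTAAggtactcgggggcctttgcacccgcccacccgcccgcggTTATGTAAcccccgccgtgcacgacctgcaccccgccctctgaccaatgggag
Bmal1, element shared by REV-ERB and ROR factors 30 bases after the start, chr7:112806736-112806765, plus strand: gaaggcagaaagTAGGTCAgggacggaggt
The Per3 stretch lies upstream of the annotated gene, and the stretches of Per1, Cry1 and Bmal1 overlap an exon of at least 1 annotated transcript. Both strands were searched for 4 motifs. The E-box CACGTG, which reads the same on both strands, was in 7.15% of all 32851 promoter windows in the table. The D-box (TTATGTAA or TTACGTAA) was in 1.06%, the REV-ERB and ROR element (TAGGTCA or TGGGTCA) in 6.45%, and the cAMP element TGACGTCA in 1.79%. The other windows of these genes held none of these letters, and the cAMP element was in none of the 13 windows. A match is a description of the sequence and was not tested as a binding site.

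The deposited counts summed to between 24495952 and 35616134 per library, and 21114 to 23431 genes had a count in a library. The targeted gene was at 4444, 2832, 2778 and 2865 counts in the WT libraries and at 168, 332 and 229 counts in the LC3b-/- libraries, with a log2 fold change of -3.98 (SE 0.15, adjusted p = 1.86e-04). RPE markers were high in all 7 libraries, at 30275 to 47663 CPM (counts scaled to a common library size) summed over 11 genes in WT and 13233 to 28366 CPM in LC3b-/-, so the groups did not overlap. Markers of other cells were present in every library. Photoreceptor markers (12 genes) summed to 275 to 21127 CPM in WT and 96.4 to 7305 CPM in LC3b-/-. Markers of ocular surface epithelium (10 genes) summed to 9.14 to 2418 CPM in WT and 3308 to 23506 CPM in LC3b-/-. Endothelial markers (7 genes) summed to 197 to 633 CPM in WT and 770 to 823 CPM in LC3b-/-, while fibroblast, macrophage and erythrocyte sums overlapped between the genotypes. In RNA from a mixture of cells, fewer cells of a type and less RNA per cell cannot be told apart.

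Levels below are CPM on the TMM scale, which adjusts library sizes for a few dominant genes. Per kilobase of exon, Dbp was the most abundant clock gene in all 7 libraries, at 83.3 ± 12.03 CPM per kb in WT (SD, n = 4) and 69.9 ± 8.46 in LC3b-/- (SD, n = 3). Nr1d1 came next in all 7, at 29.5 ± 0.511 in WT and 39.0 ± 6.74 in LC3b-/-. Of the genes tested, 98.0% were below Dbp and 95.1% below Nr1d1. Nr1d2 (14.0 CPM per kb in WT) and Per1 (11.7) followed, and their order was that way in 4 of 7 libraries. Cry2 (6.63) and Per2 (6.003), and likewise Cry1 (3.97) and Per3 (3.65), also traded places, each in that order in 4 of 7 libraries. Per3 was above Clock (2.94) in 5 of 7 libraries. Bmal1 was the least abundant in every library, at 0.989 ± 0.473 CPM per kb in WT and 0.571 ± 0.354 in LC3b-/-, with 26.5% of the genes tested below it. Dbp was thus the most and Bmal1 the least abundant of the 10 genes in each mouse of both genotypes.

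None of the 10 clock genes was called differentially expressed by edgeR's quasi-likelihood test (a call needed an adjusted p under 0.05 together with a 1.5-fold change or more), where 0.235% of all genes tested were. DESeq2 and limma's voom also called 0 of the 10, beside 9.85% and 0.73% of the genes each of them tested. At an unadjusted p under 0.05 there were 2 of 10, Nr1d1 and Per1, both higher in LC3b-/-, against 24.1% of all genes. The genotypes did not overlap for 1 of 10, Nr1d1, against 22.3% of all genes. Both shares are close to or under those of the genome as a whole. The fold changes had a median of 0.11 on the log2 scale and ran from -0.79 (Bmal1) to 0.69 (Per1), with 6 higher and 4 lower, beside a median of 0.01 and 8699 higher and 8291 lower for all genes.

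**Figure D1:**
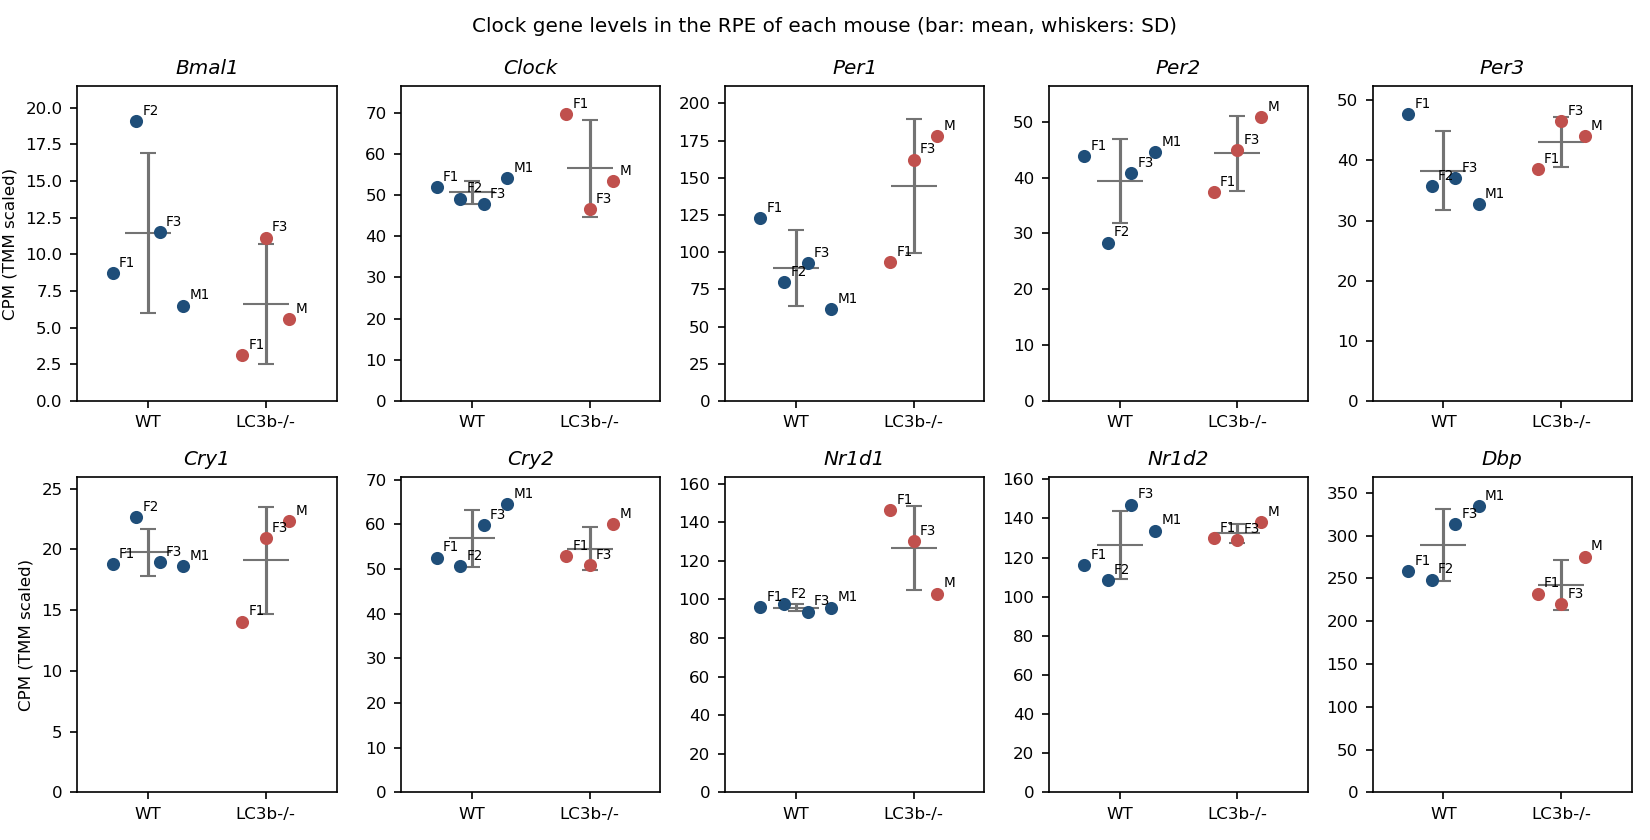
Level of each clock gene in each library, in CPM on the TMM scale from 0 on a linear axis, with 1 point per mouse, WT in blue and LC3b-/- in red. Horizontal bars are group means and whiskers SDs. Only the Nr1d1 points separate by genotype, and relative to their level (SD of log2 CPM within groups) Bmal1 and Per1 spread the most.

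Bmal1 encodes the activator without which the loop stops. Its level was 8.72, 19.1, 11.5 and 6.497 CPM in the WT libraries and 3.14, 11.1 and 5.55 CPM in the LC3b-/- libraries. WT F2 was high and LC3b-/- F1 low, LC3b-/- F3 lay within the WT range, and the libraries spanned a 6.07-fold range, the widest of the 10 genes. The log2 fold change was -0.79 (SE 0.51, adjusted p = 0.375). It rested on few libraries: it was -0.43 without WT F2, -0.46 without LC3b-/- F1, -1.43 without LC3b-/- F3 (adjusted p = 0.247) and -0.07 without both WT F2 and LC3b-/- F1, a pair chosen after seeing the data. Photoreceptor markers moved with it, as described below. The gene (ENSMUSG00000055116) lies at chr7:112806152-112914735 on the plus strand of GRCm39.

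Clock encodes the partner of BMAL1, whose transcript cycles little in most tissues. It was at 51.9, 49.1, 47.8 and 54.1 CPM in the WT libraries and at 69.5, 46.5 and 53.3 CPM in the LC3b-/- libraries. LC3b-/- F1 was above all others and LC3b-/- F3 below all others. The log2 fold change was 0.15 (SE 0.15, adjusted p = 0.555) and -0.03 without LC3b-/- F1. Clock (ENSMUSG00000029238) lies at chr5:76342860-76452846, minus strand, and overlaps Tmem165 on the opposite strand.

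The period genes encode the repressors whose build-up closes the loop, and Per1 and Per2 also answer acutely to light, hormones and stress. Per1, which carries the E-box shown above, was at 123, 79.7, 92.8 and 61.9 CPM in the WT libraries and at 93.2, 162 and 178 CPM in the LC3b-/- libraries. LC3b-/- F3 and M were above every WT library, whereas LC3b-/- F1 lay within the WT range. The group means were 89.3 ± 25.6 CPM (SD, n = 4) and 144 ± 45.1 CPM (SD, n = 3), a 1.62-fold ratio with a log2 fold change of 0.69 (SE 0.29, adjusted p = 0.199). It was 0.93 without LC3b-/- F1, 0.51 without LC3b-/- M and 0.37 among females alone, and the adjusted p ranged from 0.109 to 0.809 over the alternative analyses.

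Per2, with 28.4 to 44.6 CPM in WT and 37.4 to 50.8 CPM in LC3b-/-, and Per3, with 32.7 to 47.7 and 38.6 to 46.6 CPM, overlapped between genotypes. The log2 fold change was 0.17 for each (SE 0.19 and 0.15, adjusted p = 0.606 and 0.527). WT F2 was the library with the least Per2, at 28.4 CPM, and without it the log2 fold change was 0.04. Per1 (ENSMUSG00000020893) lies at chr11:68986035-69002300, plus strand, Per2 (ENSMUSG00000055866) at chr1:91343700-91387069, minus strand, and Per3 (ENSMUSG00000028957) at chr4:151081373-151129140, minus strand, where it overlaps Uts2 on the opposite strand.

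The cryptochromes are the partners of the PER proteins in repression. Cry1, which peaks later than the Per genes in most tissues, was at 18.8, 22.7, 19.0 and 18.6 CPM in the WT libraries and at 14.1, 20.9 and 22.3 CPM in the LC3b-/- libraries. WT F2 stood above the other WT libraries and LC3b-/- F1 below all others. Its log2 fold change was -0.05 (SE 0.18, adjusted p = 0.897), and the sign was not stable: it was 0.01 with library size in place of TMM, 0.02 without WT F2 and 0.13 without LC3b-/- F1. Cry2 was at 50.6 to 64.5 CPM in WT and 50.8 to 60.05 CPM in LC3b-/-, with a log2 fold change of -0.06 (SE 0.12, adjusted p = 0.801), and 0.00 without WT M1. Cry1 (ENSMUSG00000020038) lies at chr10:84967560-85021252 and Cry2 (ENSMUSG00000068742) at chr2:92233894-92264474, both on the minus strand.

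Nr1d1 encodes REV-ERBα, the repressor of Bmal1 and a gene of wide daily amplitude in most tissues. It was at 95.8, 97.7, 93.7 and 95.8 CPM in the WT libraries and at 146, 130 and 103 CPM in the LC3b-/- libraries. The WT mean was 95.7 ± 1.66 CPM (SD, n = 4), all LC3b-/- libraries were above them, and LC3b-/- M was nearest. The ratio of means was 1.32-fold, with a log2 fold change of 0.40 (SE 0.13, adjusted p = 0.143), which is under the fold threshold as well as above the threshold for p. Leaving out 1 library at a time gave 0.28 (without LC3b-/- F1) to 0.53 (without LC3b-/- M). The adjusted p ranged from 0.0585 to 0.457 over the alternatives. Nr1d1 (ENSMUSG00000020889, chr11:98658752-98666188, minus strand) overlaps 3173 bases of Thra, the thyroid hormone receptor α gene on the opposite strand, whose log2 fold change was 0.05 (adjusted p = 0.808). The library kit keeps strand, but how the counting used it is not given in the sources used here.

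Nr1d2 encodes REV-ERBβ, which acts on the same element as Nr1d1. It was at 116, 109, 147 and 134 CPM in the WT libraries and at 130, 129 and 138 CPM in the LC3b-/- libraries. All 3 LC3b-/- values were within the WT range, and the log2 fold change was 0.07 (SE 0.13, adjusted p = 0.789), unlike the separation seen for Nr1d1, although the difference between the 2 genes was not tested. Nr1d2 (ENSMUSG00000021775) lies at chr14:4230545-4266624, plus strand.

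Dbp encodes a D-box activator under direct control of BMAL1 and is one of the transcripts that swing most widely over the day in peripheral tissues. It was at 259, 249, 314 and 335 CPM in the WT libraries and at 232, 220 and 276 CPM in the LC3b-/- libraries. LC3b-/- F1 and F3 were below every WT library, and LC3b-/- M was among them. The means were 289 ± 41.8 CPM (SD, n = 4) and 242 ± 29.3 CPM (SD, n = 3), with a log2 fold change of -0.25 (SE 0.16, adjusted p = 0.368). The libraries spanned a 1.52-fold range in all. Dbp (ENSMUSG00000059824) lies at chr7:45354512-45359627, plus strand, and overlaps Sphk2 on the opposite strand.

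**Figure D2:**
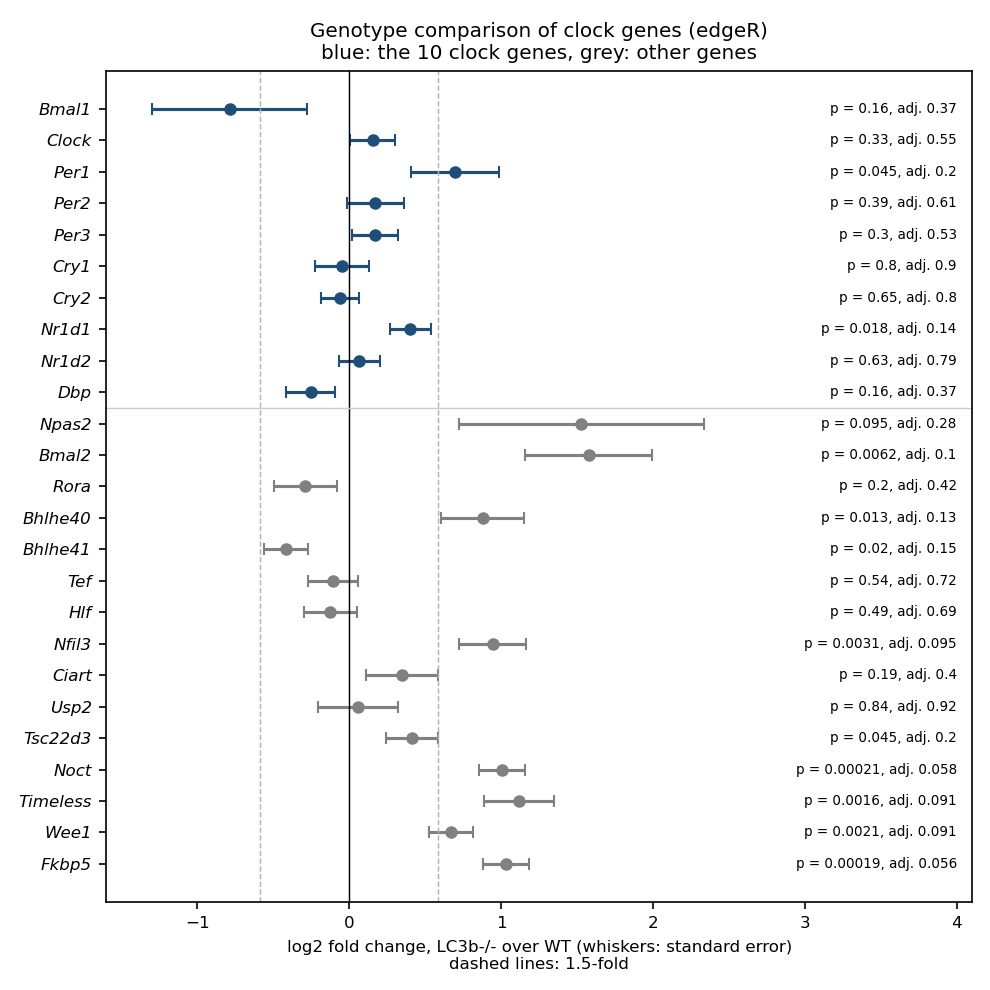
Log2 fold change of LC3b-/- over WT (points) with its standard error (whiskers) for the 10 clock genes in blue and 15 other genes in grey, with unadjusted and adjusted p from edgeR at the right. Dashed lines mark a 1.5-fold change. Among the 10 clock genes the adjusted p was lowest for Nr1d1, at 0.143.

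Genes of opposite arms peak at opposite times, so their ratio within a library can vary with phase and is not moved by library size. Cell mixture can move it too, as Bmal1 was ordered partly with photoreceptor markers and Dbp with RPE markers, described below. Phase and cell mixture cannot be told apart in such a ratio. The log2 ratio of Bmal1 to Dbp was -4.88, -3.70, -4.76 and -5.67 in the WT libraries and -6.18, -4.29 and -5.62 in the LC3b-/- libraries. The means were -4.75 ± 0.81 (SD, n = 4) and -5.36 ± 0.97 (SD, n = 3), and the difference of -0.61 was smaller than either SD. It was -0.20 without LC3b-/- F1, -0.26 without WT F2, -1.14 without LC3b-/- F3, and 0.15 without both LC3b-/- F1 and WT F2. In linear terms per kilobase, Dbp exceeded Bmal1 43.5-fold (WT F2) to 247-fold (LC3b-/- F1).

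A further pair of ratios did not place the genotypes in one order. Bmal1 to Nr1d1 was lower in LC3b-/-, with a mean log2 ratio of -4.42 ± 1.00 (SD, n = 3) against -3.17 ± 0.65 (SD, n = 4) in WT, a difference of -1.24. Npas2 to Per3, which sets the same arms against each other, was higher in LC3b-/-, at -3.99 ± 1.02 (SD, n = 3) against -5.56 ± 1.205 (SD, n = 4), a difference of 1.57. Both of these differences were larger than the SD of either group, unlike that of Bmal1 to Dbp. In all 3 ratios the ranges of the genotypes overlapped. Bmal1 and Npas2, which peak together, thus differed from WT in opposite directions, and neither passed the test.

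**Figure D3:**
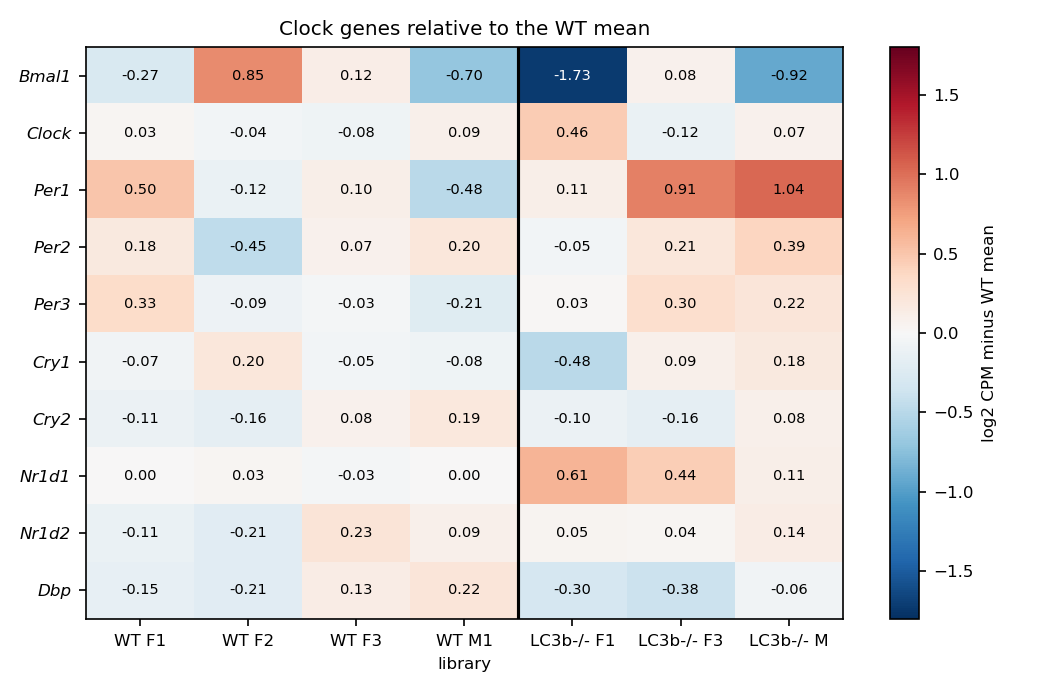
Log2 CPM of each clock gene in each library minus the mean of the 4 WT libraries, written in the cell and shown as colour from blue (lower) to red (higher). The largest values are Bmal1 in LC3b-/- F1 (-1.73) and Per1 in LC3b-/- M (1.04). No library shows one arm raised throughout and the other lowered throughout. In WT F2, however, the Per genes, Nr1d2 and Dbp are lower and Bmal1 and Cry1 higher. Nr1d1 (0.03) and Clock (-0.04) are the exceptions there.

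The deviation of each library from the WT mean differed from gene to gene. In LC3b-/- F1, Bmal1 was at -1.73 and Cry1 at -0.48 on the log2 scale while Nr1d1 was at 0.61 and Clock at 0.46. In LC3b-/- F3 and M, Per1 was at 0.91 and 1.04, whereas Dbp, of the same arm, was at -0.38 and -0.06. In WT F2, Bmal1 was at 0.85 with Per2 at -0.45 and Dbp at -0.21. The mean deviation of 6 E-box and D-box targets (the Per and Nr1d genes and Dbp) was between -0.17 and 0.13 in the WT libraries, and 0.07, 0.25 and 0.31 in the LC3b-/- libraries. The mean of 4 genes set against them (Bmal1, Clock, Npas2 and Cry1) was 0.32, 0.40, -0.37 and -0.35 in the WT libraries and 0.24, 0.41 and 0.06 in the LC3b-/- libraries. In all 3 LC3b-/- libraries both means were thus above the WT mean. The signs differed in WT F2 (targets at -0.17) and WT F3 (targets at 0.08). The second mean owed its height in LC3b-/- mainly to Npas2, a gene at 0.225 to 5.24 CPM over the libraries. In the LC3b-/- libraries Bmal1 was at -1.73, 0.08 and -0.92, Clock at 0.46, -0.12 and 0.07, and Cry1 at -0.48, 0.09 and 0.18. That mean therefore does not describe the arm as a whole.

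Mice of a group taken at different clock times would differ from each other, so the spread of each gene was set beside that of genes of like level. Genotypes each taken at their own hour would show no added spread within groups. The spread therefore cannot decide whether phase differed between genotypes. The SD of log2 CPM within groups was 0.76 for Bmal1, above 86.9% of the genes of its level, whose median was 0.31. It was 0.45 for Per1, above 88.6% of genes of its level, whose median was 0.20. That of Per2 was 0.27, above 71.4%. Cry1, Per3 and Clock were above 58.4%, 52.9% and 51.9% of genes of their level. Dbp (0.19) and Nr1d1 (0.16) were above 34.4% and 34.3%, and Nr1d2 (0.16) and Cry2 (0.15) above 29.9% and 29.5%. The value of Nr1d1 pools unlike groups, with an SD of 0.025 in WT and 0.257 in LC3b-/-. In all, 6 of 10 genes varied more than the median gene of their level. These are descriptions with no test.

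Cell markers moved with some of these values. Bmal1 was highest in WT F2, WT F3 and LC3b-/- F3, in that order, and lowest in LC3b-/- F1, and the summed photoreceptor markers had the same first 3 libraries and the same lowest one. The 12 photoreceptor markers were all lower in LC3b-/-, none at an unadjusted p under 0.05. With the photoreceptor sum as a covariate, an alternative chosen after seeing the data, the log2 fold change of Bmal1 was -0.51 (adjusted p = 0.257).

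Dbp was ordered much as the RPE markers were, with WT M1 and WT F3 highest and LC3b-/- F1 and F3 lowest in both. Of the 11 RPE markers, 10 were lower in LC3b-/- and 6 of these had an unadjusted p under 0.05. Npas2, at 2.34, 1.1601, 0.225 and 0.423 CPM in the WT libraries and 5.24, 2.41 and 1.45 CPM in the LC3b-/- libraries, was highest in LC3b-/- F1 and F3, as were the ocular surface markers, all 10 of which were higher in LC3b-/-, 7 at an unadjusted p under 0.05. The part of these cells in the clock gene values was not tested.

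**Figure D4:**
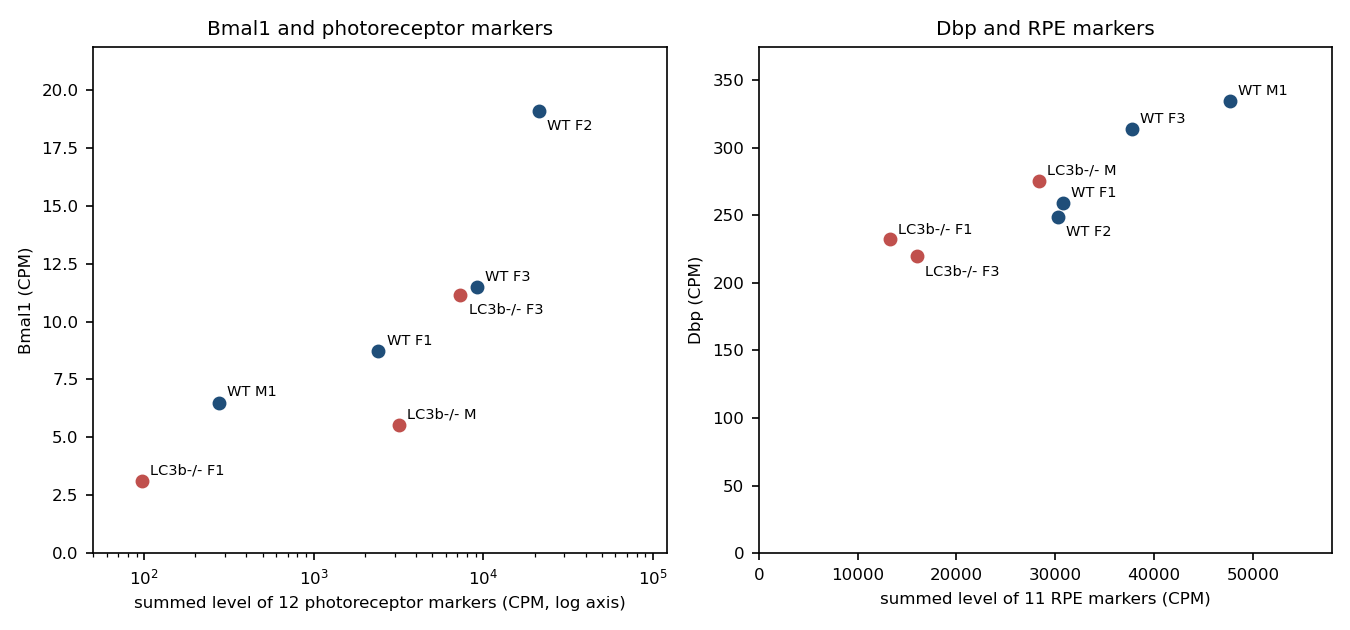
Left, Bmal1 (CPM) in each library against the summed level of 12 photoreceptor markers (CPM, log axis), and right, Dbp (CPM) against the summed level of 11 RPE markers (CPM, linear axis), with WT in blue and LC3b-/- in red. LC3b-/- F1 is lowest on both axes at left, and WT M1 is highest on both axes at right.

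Of 25 other genes of the clock, its kinases and ubiquitin ligases, and its outputs, 0 were called by edgeR, 15 were higher and 10 lower in LC3b-/-, and the median log2 fold change was 0.11. At an unadjusted p under 0.05 there were 8 higher and 2 lower of the 25, beside 24.1% of all genes, and 8 of 25 did not overlap between genotypes, beside 22.3%. DESeq2 called 7 of the 25 (Bmal2, Bhlhe40, Nfil3, Noct, Timeless and Wee1 among them), beside 9.85% of the genes it tested. The 1 gene called by voom was Noct, beside 0.73%. Among activators, Npas2, the alternative partner of BMAL1, had a log2 fold change of 1.53 (SE 0.80, adjusted p = 0.283), and Bmal2, a relative of Bmal1 present at 0.50 to 3.83 CPM, one of 1.58 (SE 0.42, adjusted p = 0.104). Rora, which activates Bmal1, had one of -0.29 (adjusted p = 0.422).

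The D-box activators related to Dbp were, like it, lower on average in LC3b-/- and within the spread between mice. Tef was at 218 ± 35.2 CPM in WT (SD, n = 4) and 202 ± 25.4 in LC3b-/- (SD, n = 3), and Hlf at 113 ± 18.2 and 104 ± 17.7, with log2 fold changes of -0.11 and -0.13 (adjusted p = 0.723 and 0.689). Nfil3, the D-box repressor and also a cytokine-induced gene, was at 18.9, 12.1, 11.9 and 12.03 CPM in the WT libraries and at 25.3, 21.97 and 32.1 CPM in the LC3b-/- libraries. All LC3b-/- values were above all WT values, with a log2 fold change of 0.94 (SE 0.22, adjusted p = 0.0951). Per3, whose window holds both D-boxes shown above, had a log2 fold change of 0.17.

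Bhlhe40 and Bhlhe41 encode the DEC repressors, which compete for E-boxes. Bhlhe40 was at 176 to 384 CPM in WT and 400.2 to 499.5 CPM in LC3b-/-, with a log2 fold change of 0.88 (adjusted p = 0.127). Bhlhe41 was at 112 to 138 CPM in WT and 78.6 to 108 CPM in LC3b-/-, with one of -0.42 (adjusted p = 0.148). Both separated the genotypes, in opposite directions, and neither was called by edgeR. Ciart, a repressor of the BMAL1 pair (log2 fold change 0.34, adjusted p = 0.401), and Usp2, a rhythmic deubiquitinase (0.06, adjusted p = 0.918), overlapped between genotypes.

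The other listed genes with the smallest p were Noct, a rhythmic phosphatase also known as nocturnin, Timeless and Wee1, which act in DNA replication and the cell cycle. Noct was at 55.2, 46.9, 48.1 and 37.3 CPM in the WT libraries and at 105, 86.8 and 89.8 CPM in the LC3b-/- libraries, a 2.005-fold ratio with an adjusted p of 0.0580 in edgeR. The log2 fold changes of Timeless and Wee1 were 1.12 and 0.67 (adjusted p = 0.0906 for each). Their LC3b-/- values were all above their WT values.

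Because Per1 and some other clock genes also answer to glucocorticoids and to acute stimuli, known targets of both stood beside them. Of 10 glucocorticoid targets, a list that includes Per1, 0 were called by edgeR, 9 were higher and 1 lower in LC3b-/-, 7 higher at an unadjusted p under 0.05 (beside 24.1% of all genes), with a median log2 fold change of 0.70. Fkbp5, a co-chaperone of the glucocorticoid receptor and among its most inducible targets, was at 20.2, 15.8, 17.0 and 16.0 CPM in the WT libraries and at 34.0, 30.4 and 41.5 CPM in the LC3b-/- libraries. The genotypes did not overlap, and the log2 fold change was 1.03 (SE 0.15, adjusted p = 0.0563 in edgeR). DESeq2 and voom did call Fkbp5 (adjusted p = 3.93e-06 and 0.0386). Cdkn1a, a cell cycle inhibitor that p53 also induces, had a log2 fold change of 1.76 (adjusted p = 0.0903). Tsc22d3, known as GILZ, had one of 0.41 (adjusted p = 0.1997), with overlapping values.

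Of 20 immediate early genes, 19 passed the filter and Npas4 did not. By edgeR 0 were called, all 19 were higher in LC3b-/-, 7 of them at an unadjusted p under 0.05 (beside 24.1% of all genes), and the median log2 fold change was 0.85. The genotypes did not overlap for 5 of the 19, beside 22.3% of all genes. WT F1 was above every LC3b-/- library for Fos (871 CPM against 630.2 to 740 CPM), Fosb, Jun and Egr1, which were named after their values were seen. Fosl1, a subunit of the AP-1 factor, was at 0.71 to 1.43 CPM in WT and 3.37 to 13.0 CPM in LC3b-/-, with a log2 fold change of 2.84 (adjusted p = 0.0776). The glucocorticoid and immediate early lists share Dusp1 and were counted together, with Per1 left out. DESeq2 called 4 of their genes (Fkbp5, Cdkn1a and Fosl1 among them), beside 9.85% of the genes it tested. The 1 gene called by voom was Fkbp5, beside 0.73%. LC3b-/- F1, the library of highest Fosl1 and of most ocular surface markers, was the LC3b-/- library of lowest Per1. Whether hormone, dissection or cell mixture had a part in these levels was not tested.

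The transcripts whose levels over the 7 libraries were most like those of Dbp, among 14911 genes with a mean of at least 1 CPM, were Grsf1, Tollip, Golph3l, Erlin2 and Aga, with Pearson's r of log2 CPM from 0.993 to 0.995. None of these is a clock gene by the lists used here. Among clock genes, Cry2 (r = 0.91), Hlf (0.89) and Tef (0.89) were most like Dbp, but 5.1%, 6.44% and 7.16% of all genes were at least as alike. Nr1d1, which shares the activator of Dbp, had r = -0.73 with it, and Bmal1 had r = 0.00. After subtracting the mean of each genotype, r with Dbp was -0.53 for Nr1d1, -0.49 for Bmal1, 0.84 for Nr1d2 and, for Cry2, Tef and Hlf, 0.996, 0.941 and 0.938. For Bmal1 the most alike included Nadk2, Wasf3, Tex9 and Gnat2, the last encoding the α-subunit of cone transducin, with r from 0.977 to 0.985. These values describe 7 libraries that share their cell mixture and depth, and carry no test.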

How the data were processed

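RPE RNA of 7 mice was sequenced with stranded libraries of polyadenylated RNA. The authors ran salmon on GENCODE vM26 (GRCm39), used tximeta to sum transcripts to genes, and deposited estimated counts per gene as whole numbers without any scaling. No column was left unused (0). Of 52740 identifiers, 51721 matched GENCODE vM39, which gave symbols, coordinates and exon lengths (union of all exons). The clock genes and the other lists were chosen with earlier results of these data known, and no list is independent evidence.

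The analysis used edgeR 4.0.16 in R 4.3.3: genes were kept by filterByExpr, scaled by TMM, and tested between genotypes by quasi-likelihood with no covariate, with Benjamini-Hochberg adjustment over 16990 genes. A call is an adjusted p under 0.05 with a fold change of at least 1.5. Log2 CPM used a prior count of 2. Each p-value sets a gene's difference between genotypes against its spread between the mice within groups. The biological coefficient of variation common to all genes was 0.398. No library is a copy of another: the chi-square between libraries of a group was 66.4 to 219 per degree of freedom. The alternatives were DESeq2 1.42.0, limma 3.58.1 (voom with sample weights), other scalings and filters, sex as a covariate, females alone, the mouse name as a block, and each library left out in turn. The photoreceptor covariate and the joint removal of WT F2 and LC3b-/- F1 were added after seeing the data. The code was tested on simulated data. Spread was compared among genes within 1 log2 CPM.

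Named outside the 10 clock genes and Map1lc3b were 12 genes set by role (Npas2, Bmal2, Rora, Bhlhe40, Bhlhe41, Tef, Hlf, Nfil3, Ciart, Usp2, Tsc22d3 and Fkbp5), up to 8 of the listed genes with the smallest unadjusted p, and the 5 genes most alike in profile to Dbp and to Bmal1, of which 1 is not reported here. Thra was named after its values were seen, as it overlaps Nr1d1. Figures were drawn with matplotlib 3.10.9 in Python 3.11.15.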

Additional observations from a re-analysis of the deposited data

Results flagged for a closer look

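Among the 4 WT libraries, Cry1 in WT F2 stood apart at 22.7 CPM, with the gap to the next library taking 0.916 of the group's range. Nfil3 in WT F1 stood apart at 18.9 CPM, with a gap of 0.967 of the range. Both exceed Dixon's critical value, which chance passes in about 1 of 20 groups, and 38 values were examined. The rule was not applied to the 3 LC3b-/- libraries.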

How the results depend on the processing

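The 10 clock genes held 0 calls under every alternative run. Those at an unadjusted p under 0.05 numbered 2, and 1 with sex as a covariate, among females alone, with the replicate block and without WT F2 and LC3b-/- F1 together, and 0 (without WT F3) to 2 (without WT F1) on leaving out 1 library. Of the log2 fold changes under alternatives, 170 kept their sign and stayed uncalled, and 10 reversed. Some of the 170 crossed the 1.5-fold threshold, such as Per1 among females alone (0.37). Per2 (-0.046) and Nr1d2 (-0.012) reversed under the block, and Clock without both libraries (-0.039). Cry1 reversed with library size alone (0.0070), the photoreceptor covariate (0.023) and without both libraries (0.21). With 1 library left out, Cry1 ran from -0.18 to 0.13, Cry2 from -0.14 to 0.0049 and Clock from -0.026 to 0.26. The ratio of Npas2 to Per3 gave 1.57 in place of -0.61 for Bmal1 to Dbp. Other clock genes called were 0, but 1 (Noct) with DESeq2's size factors, library size alone, no filter, voom or sex, and 7 with DESeq2's test. On leaving out 1 library they were 0 to 3 (3 without WT F1, namely Bhlhe40, Nfil3 and Noct, and 1, Noct, without LC3b-/- M). Glucocorticoid and immediate early genes called were 0, but 1 (Fkbp5) with those same 5 settings or with a minimum of 10 counts per library, and 4 with DESeq2's test. On leaving out 1 library they were 0 to 3 (3 without WT F1, 2 without LC3b-/- M). Over all genes, 215 of 16753 were called without WT F1 and 485 of 17553 without LC3b-/- M. Of 16990 genes, 58, 49, 124 and 197 were called with DESeq2's size factors, library size alone, voom and sex. With no filter it was 78 of 28835, with the minimum of 10 counts 46 of 14441, and with DESeq2's test 1831 of 18583. The cause of these shifts was not tested. The names F1 and F3 recur in both genotypes, and deviations of the same-named libraries correlated at 0.146 and 0.243. LC3b-/- F1 correlated better with WT M1 (0.534), and LC3b-/- F3 with WT F2 (0.463). Correlations over all genes cannot show whether same-named mice were handled together, and the labels state no pairing. With the name as a block, 0 of 16990 genes were called against 40, and Nr1d1 was at 0.54 (adjusted p = 0.253). In that fit WT F2, WT M1 and LC3b-/- M each stood alone in a block, so only F1 and F3 compared the genotypes. So few mice left little room for a call, and 0 calls there do not show that the genotypes were alike. Bmal1 had the fewest counts, 78 to 460 per library.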
